A study of Mus musculus with 12 samples.

Results

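The 10 genes described here carry or modulate Wnt signals: the Frizzled receptors Fzd1, Fzd2, Fzd3, Fzd7 and Fzd8, the secreted Frizzled-related proteins Sfrp1 and Sfrp2, the transcription factors Tcf7l2 and Lef1, and Ctnnb1, which encodes beta-catenin. Their members were every probe set (the group of short oligonucleotides that measures a transcript) that the platform annotation pairs with exactly 1 of these symbols. That gave 13 probe sets, at least 1 for each gene, of the 12422 on the array that are not Affymetrix controls, and 10 of the 8251 genes with such a probe set. The tissue was mouse cortex at E16.5 (embryonic day), cut into ventral, medial, dorsal, rostral and occipital pieces, with the whole hemisphere as a group of its own. Each of the 6 groups had 2 arrays from independent dissections, by the labels, so 12 arrays were compared. All groups had the same age, and the labels used here give no genotype, strain, treatment or number of embryos per dissection. One piece is rostral in the sample titles and lateral in the protocol, and it is called rostral here. The borders of the pieces are not given beyond these names.

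Wnt ligands bind Frizzled receptors together with Lrp co-receptors at the cell surface. This stops the breakdown of beta-catenin, which enters the nucleus and acts with Tcf and Lef factors on target genes. Secreted Frizzled-related proteins bind Wnts outside the cell and limit their access to receptors. In the embryonic forebrain, Wnts from the medial edge of the cortex are known to pattern the hippocampal field and to keep cortical progenitors dividing. Tcf7l2 is best known in this part of the embryo as a marker of the thalamus, and Lef1 is needed for the hippocampus.

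Levels are given as the average difference. It averages, over the probes of a set, how much brighter the matching probe was than its mismatched partner, is linear, and falls below 0 where the partner was brighter. Since it depends on the probes, levels were compared between arrays and never between genes. Signal below 694, a floor taken as the root mean square over the negative values, cannot be told from 0 and was set to the floor before log2 was taken. Probe sets above 1387 (2 times the floor) on at least 2 arrays were tested, which left 5832 probe sets. A difference passed at an adjusted p of 0.05 in limma, adjusted by the Benjamini-Hochberg method over those 5832. Of the 13 member probe sets, 9 were tested, 1 each for 9 genes, and Fzd7 had none.

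Before any result, 4 arrays need a remark. Rostral replicate 2 correlated best with occipital replicate 1 (r = 0.963 over the tested probe sets, on the floored log2 scale), above its own replicate (0.934). That alone does not single it out, since 9 of the 12 arrays correlated better with an array of another group than with their own replicate. Zic1, a zinc finger gene of the thalamus and septum, had 22097 on rostral replicate 2 and 20733 on occipital replicate 1, against 3284 on rostral replicate 1 and 2878 on occipital replicate 2. The labels were kept. Differences of the members that lie near or past the threshold are also given without these 4 arrays, and the gene lists and the ranking of like genes only with them. Each array's 2% trimmed mean lay between 2501.6 and 2501.9, between 16.9% and 21.7% of values were negative, and replicates correlated at 0.901 to 0.962. All 4 cortex markers on the array (Neurod2, Neurod6, Tbr1 and Fezf2) were tested. They summed to 38229 and 47888 in the ventral piece, against 64079 to 91484 on the 8 other regional arrays. In the ventral piece 2 of the 4 passed as lower, beside 5.54% of all tested probe sets. Tbr1 ran the other way, at 20333 and 21076 there (log2 difference 0.20 from the other regions; limma, adjusted p = 0.580). Markers of the labelled tissue were thus present, at lower sums in the ventral piece.

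Of the receptors, Fzd2 and Fzd8 were lower in the ventral piece than in the other 4 pieces, by 2.24-fold and 2.05-fold. The antagonist Sfrp1 was lower there by 3.64-fold. The transcription factor Tcf7l2 was higher there by 2.55-fold. Fzd1, Fzd3, Sfrp2, Lef1 and Ctnnb1 did not pass. So 4 of the 9 tested probe sets (44.4%) passed, 1 higher and 3 lower, against 9.79% of all tested probe sets, 4.25% higher and 5.54% lower. The members' median log2 difference was -0.32, beside -0.02 for all tested probe sets. The members were chosen with earlier results of these data known, so these shares only describe them. In pieces of tissue such as these, fewer cells of a type and less RNA per cell cannot be told apart.

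Fzd2 is a receptor of both the beta-catenin and the beta-catenin-independent branches. Its level was 1980.2 and 2525.5 in the ventral piece. It was 5356 and 6489 in the medial, 3494 and 4938 in the dorsal, 3826 and 6127 in the rostral and 4826.5 and 5913 in the occipital piece, and 4337 and 5612.5 in the hemisphere. Both ventral arrays lay below all 10 other arrays. The ventral mean was 2253 ± 386 (SD, n = 2) against 5121 ± 1069.7 for the other regions (SD, n = 8). The log2 difference was -1.17 ± 0.23 (SE; limma, adjusted p = 0.0144), with -1.12 among the arrays numbered 1 and -1.21 among those numbered 2. In order of their means the groups ran medial, occipital, rostral, hemisphere, dorsal and ventral. Every pair of neighbours in that order overlapped except dorsal and ventral.

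Fzd8 is a receptor of neural progenitors in the embryonic forebrain. Its level was 647 and 797 in the ventral piece, the first of these under the floor, so the fold of that array is a lower limit. The other regions had 1573 and 1612 (medial), 1257 and 1553 (dorsal), 1568 and 2011 (rostral) and 1371 and 1381 (occipital), and the hemisphere had 789.7 and 1227. The ventral arrays lay below all 8 other regional arrays, while the hemisphere arrays reached down into the ventral range. The means were 722 ± 106 (SD, n = 2) in the ventral piece and 1541 ± 228 in the others (SD, n = 8). The log2 difference was -1.04 ± 0.19 (SE; limma, adjusted p = 0.0107), and it was -1.05 and -1.03 in the replicates. Only 5 of the 12 arrays exceeded 2 times the floor for Fzd8, so its values lie close to the limit of what was tested.

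Sfrp1, whose product binds Wnts and Frizzleds outside the cell, had 1247 and 674 in the ventral piece. It had 5299.7 and 4694 in the medial and 4642 and 3521 in the dorsal piece. In the rostral piece it had 1592.5 and 3565, in the occipital piece 4947 and 1506, and in the hemisphere 2714 and 2381. The ventral arrays were the lowest of the 12 and the second of them was under the floor, so the fold of that array is a lower limit. The means were 960.45 ± 406 (SD, n = 2) in the ventral piece and 3721 ± 1478.0 in the other regions (SD, n = 8), a log2 difference of -1.86 ± 0.44 (SE; limma, adjusted p = 0.0310). The wide spread of the other regions came with the rostral and occipital arrays: the 2 low values there were rostral replicate 1 and occipital replicate 2. Without these 4 arrays the ventral difference of Sfrp1 was -2.27 (limma, adjusted p = 0.00478). It did not pass at 2 times the floor (log2 difference -1.29) or with no filter (limma, adjusted p = 0.139). With 1 array left out the difference ran from -2.29 to -1.44.

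Tcf7l2 was the only member that rose in the ventral piece. Its probe set 102241_f_at carries a suffix for probes that may also hybridise to related sequences. It had 2135 and 3400.4 in the ventral piece, against -366 and 368 in the medial and 1609.6 and 1806.5 in the dorsal piece. The rostral piece had 649 and 747, the occipital piece 1059 and 2036, and the hemisphere 1359 and 2285. Ventral arrays were above every other regional array, and both medial arrays were under the floor. The means were 2768 ± 895 (SD, n = 2) in the ventral piece and 989 ± 806 in the others (SD, n = 8), a log2 difference of 1.35 ± 0.28 (SE; limma, adjusted p = 0.0194), with 1.17 and 1.53 in the replicates. Of the 8 other regional values 3 were set to the floor, so its size depends on the floor: it was 1.6 at 0.5 times the floor. A second Tcf7l2 probe set, 97660_s_at, was negative on all 12 arrays, between -2159.9 and -526.5. It was not tested and neither repeats nor opposes the pattern. Fzd2, Fzd8 and Tcf7l2 also passed without the rostral and occipital arrays, with log2 differences of -1.15 (limma, adjusted p = 0.0252), -1.0 (0.0336) and 1.31 (0.0311). All 4 calls in the ventral piece needed both ventral arrays, and none was made with either left out.

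The promoters of Tcf7l2 are shown because it was the member that moved against the others and because RefSeq lists more than 1 start for it. The windows run from 250 bases before to 50 bases after each start, on the plus strand of GRCm38.p6, and come from RefSeq. The first start lies in chr19:55741560-55741859 and the internal start in chr19:55895071-55895370. Capitals mark the match to the Tcf/Lef core in the internal window.
Tcf7l2, first start: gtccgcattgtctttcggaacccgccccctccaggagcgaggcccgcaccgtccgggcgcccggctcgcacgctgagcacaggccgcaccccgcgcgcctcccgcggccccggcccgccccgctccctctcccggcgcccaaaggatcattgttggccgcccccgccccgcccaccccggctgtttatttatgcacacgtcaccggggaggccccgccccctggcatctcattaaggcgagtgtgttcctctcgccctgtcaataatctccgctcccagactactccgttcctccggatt
Tcf7l2, internal start: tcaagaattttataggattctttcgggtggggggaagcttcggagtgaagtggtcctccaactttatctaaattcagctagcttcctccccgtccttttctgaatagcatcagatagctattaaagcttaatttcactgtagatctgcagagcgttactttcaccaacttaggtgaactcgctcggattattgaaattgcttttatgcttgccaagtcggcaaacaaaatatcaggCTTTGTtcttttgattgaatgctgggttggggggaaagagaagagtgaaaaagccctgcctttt
The core was searched as CTTTGA or CTTTGT on both strands, and the GC box, which can share at most an end base with it, as GGGCGG. The window of the first start holds no Tcf/Lef core and 6 GC boxes, and 70.0% of its bases are G or C. The internal window holds CTTTGT at position 237, 14 bases before the start, no GC box, and 42.0% G or C. Of all 32851 promoter windows of this length, 31.2% hold CTTTGA or CTTTGT (16.0% and 18.7% singly) and 35.7% hold the GC box. RefSeq windows were found for 6 of the 10 genes, 11 windows in all, and 4 of these hold CTTTGA or CTTTGT: 1 each of Fzd1, Fzd7, Lef1 and Tcf7l2. A match to 6 letters describes the window only, and an array of this kind does not show which start was used.

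**Figure D1:**
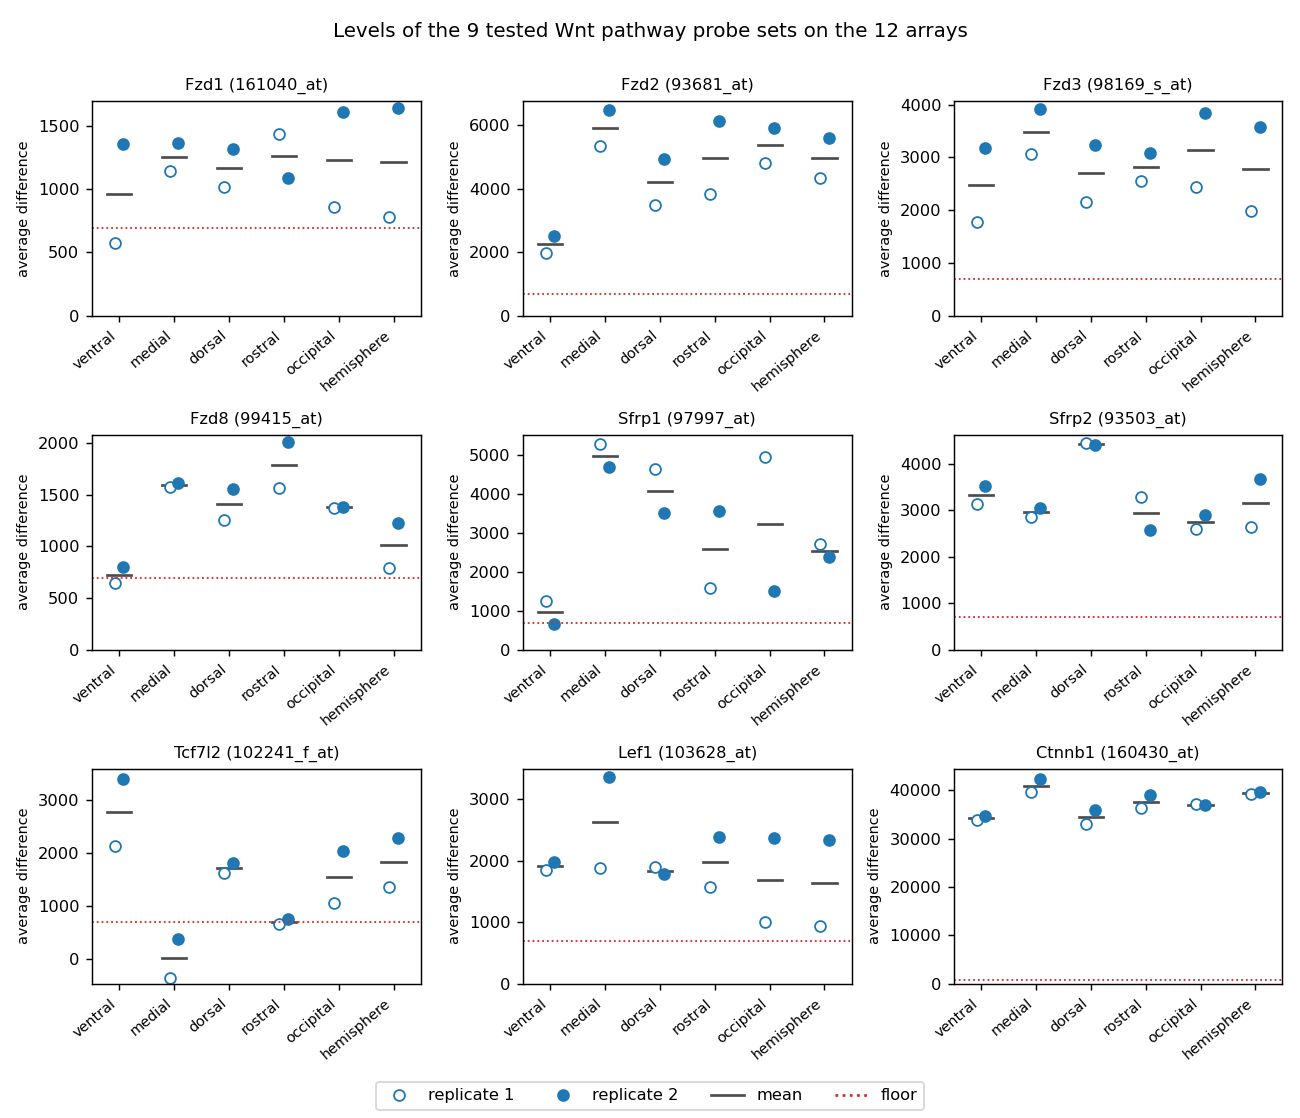
Average difference (linear) of the 9 tested probe sets on each of the 12 arrays, by group. Open circles are replicate 1, filled circles replicate 2, the bar is the group mean and the dotted line the floor of 694. Fzd2 and Sfrp1 sit lowest in the ventral piece, Fzd8 is lowest there among the regions, and Tcf7l2 runs from under the floor in the medial piece to 3400.4 in the ventral piece.

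The 5 members that did not pass in the ventral piece differed from each other in how firmly that can be read. Ctnnb1, the signal transducer itself, had the narrowest interval: its log2 difference was -0.13 with a 95% interval of -0.38 to 0.13 (limma, adjusted p = 0.574). Its levels were 33948 and 34720.1 in the ventral piece, and 33032 to 42401 over the other regional arrays. Sfrp2, the second antagonist, had 3127 and 3516 in the ventral piece and a log2 difference of 0.05 with an interval of -0.31 to 0.42 (adjusted p = 0.892). Ventral values of Sfrp2 lay inside the range of the other regions, unlike those of Sfrp1. The difference between the 2 antagonists was not tested.

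Lef1, the partner of beta-catenin in the nucleus, had 1845 and 1971 in the ventral piece, within 998 to 3362 over the other regional arrays (log2 difference -0.01; interval -0.94 to 0.91; limma, adjusted p = 0.987). Fzd3, a receptor known for axon guidance and planar polarity, had 1771.5 and 3168.5 in the ventral piece by its probe set 98169_s_at (log2 difference -0.33; interval -1.03 to 0.37; adjusted p = 0.60). Fzd1 had 572.5 and 1356 in the ventral piece, against 855 to 1612 over the other regional arrays. Its log2 difference was -0.32 (interval -1.12 to 0.49, limma, adjusted p = 0.668). The intervals of Lef1, Fzd3 and Fzd1 are wide, so those data show neither a change nor the lack of one.

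The probe sets that were not tested held little signal. The only Fzd7 probe set lay between -192.8 and 594, under the floor on all 12 arrays. The second Fzd3 probe set, 98348_at, lay between 313 and 1395 and exceeded 2 times the floor on 1 array, medial replicate 2. The second Lef1 probe set, 103629_g_at, lay between -962 and 336 and was negative on 8 arrays. Nothing can be said of Fzd7 between the pieces at this sensitivity.

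Set against the ventral piece alone, the medial piece showed the same 4 genes past the threshold; the pair shares its ventral arrays with the comparison above. Fzd2, Fzd8 and Sfrp1 were higher in the medial piece and Tcf7l2 was lower, which is 4 of 9 members (44.4%), against 11.2% of all tested probe sets (6.05% higher and 5.2% lower). The 4 also passed without the rostral and occipital arrays, which enter this comparison only through the estimate of the spread. The log2 difference was 1.40 ± 0.29 for Fzd2 (2.64-fold; limma, adjusted p = 0.0163). It was 1.10 ± 0.24 for Fzd8 (2.14-fold, adjusted p = 0.0193) and 2.42 ± 0.56 for Sfrp1 (5.36-fold, adjusted p = 0.0256). Both of these folds are lower limits, because 1 ventral array of each gene was under the floor. In none of the 4 did the 2 medial and 2 ventral arrays overlap. Tcf7l2 was at least 3.89-fold lower in the medial piece, a bound because both medial arrays were under the floor (log2 difference -1.96 ± 0.36, SE; limma, adjusted p = 0.0104). In the replicates Sfrp1 differed by 2.09 and 2.76, and Tcf7l2 by -1.62 and -2.29. Lef1 had 1884.5 and 3362 in the medial piece, and its log2 difference from the ventral piece was 0.40 (interval -0.77 to 1.57; adjusted p = 0.704).

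In the medial piece against the other 4 regions, no member passed, while 1.27% of all tested probe sets did. At an unadjusted p under 0.05 there were 3 of 9 members in limma, and 810 of all tested probe sets. These were Tcf7l2 (log2 difference -1.10; adjusted p = 0.109), Sfrp1 (1.17; adjusted p = 0.266) and Fzd2 (0.58; adjusted p = 0.279). The medial values of Tcf7l2 lay under all 8 other regional arrays. Both were under the floor, as was rostral replicate 1, so the floor sets the size of its difference, which was -2.04 at 0.5 times the floor (adjusted p = 0.0294). Without the rostral and occipital arrays Tcf7l2 passed here, at -1.63 or further below 0 (limma, adjusted p = 0.0375). Sfrp1 was then at 1.36 (adjusted p = 0.0505) and Fzd2 at 0.95 (adjusted p = 0.0789). Ctnnb1 had 39626 and 42401 in the medial piece, above the 33032 to 38969 of the other regional arrays, a log2 difference of 0.19 with adjusted p = 0.523. Fzd3 had 3059 and 3911 there, the second of them above the 1771.5 to 3841 of the other 8 regional arrays (log2 difference 0.35; adjusted p = 0.709).

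In the dorsal piece, too, no member passed (background 0.274%; 1 of 9 members and 386 of all tested probe sets at an unadjusted p under 0.05 in limma). The smallest adjusted p there was that of Sfrp2. It had 4439 and 4412 in the dorsal piece, against 2578.5 to 3516 on the other 8 regional arrays. The ranges did not overlap. The means were 4426 ± 19.3 (SD, n = 2) in the dorsal piece and 2988 ± 327 in the other regions (SD, n = 8), a log2 difference of 0.57 ± 0.16 (SE; limma, adjusted p = 0.305). Without the rostral and occipital arrays the difference was 0.50 (adjusted p = 0.499). Hemisphere arrays had 2633 and 3669.9, also below the dorsal ones.

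Dorsal against ventral, no member passed, against 5.28% of all tested probe sets, and 3 of 9 members had an unadjusted p under 0.05 in limma (1038 of all tested probe sets). Fzd8 had 1257 and 1553 in the dorsal piece, against 647 and 797 in the ventral piece (log2 difference 0.91; adjusted p = 0.0644). Sfrp1 had 4642 and 3521 against 1247 and 674 (2.12; adjusted p = 0.0680), and Fzd2 had 3494 and 4938 against 1980.2 and 2525.5 (0.89; adjusted p = 0.124). None of these 3 overlapped. For Fzd8 and Sfrp1 the difference is a lower limit, as 1 ventral array of each was under the floor. Leaving out the rostral and occipital arrays changed none of these differences, since those arrays enter this comparison only through the estimate of the spread. With that other estimate Sfrp1 passed (limma, adjusted p = 0.0158), and Fzd8 (0.107) and Fzd2 (0.124) did not. Tcf7l2 had 1609.6 and 1806.5 in the dorsal piece, against 2135 and 3400.4 in the ventral piece (log2 difference -0.66; adjusted p = 0.403).

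**Figure D2:**
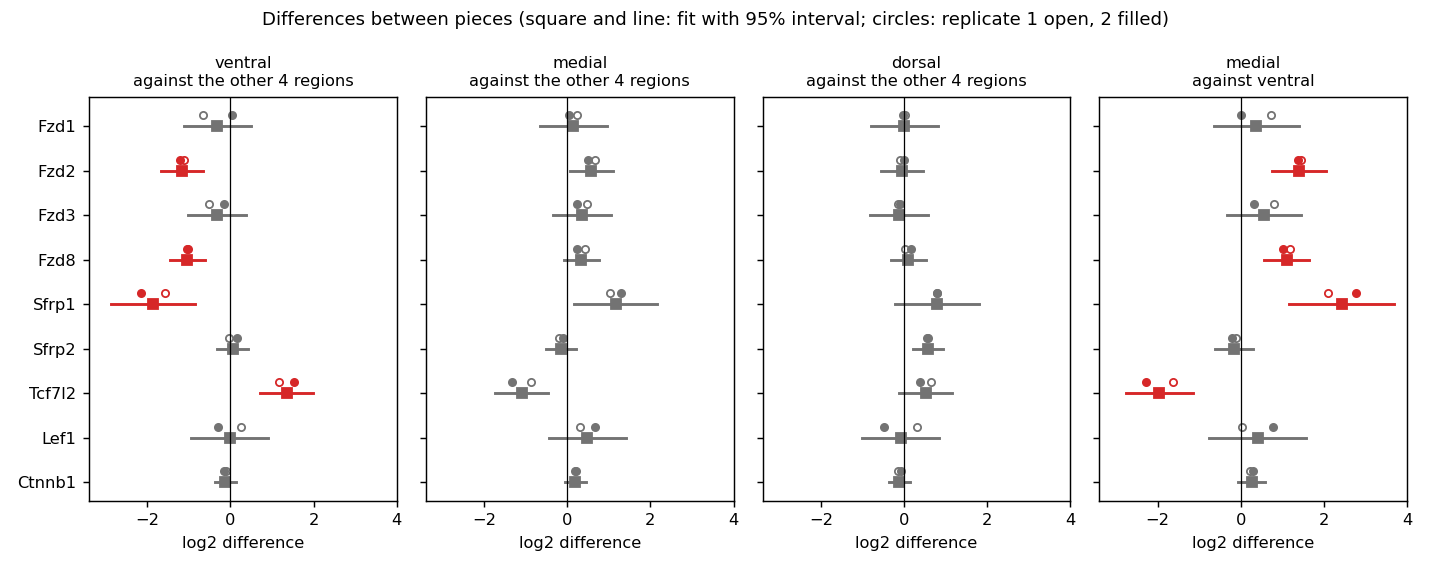
Log2 differences of the 9 tested probe sets in 4 comparisons (panels). Squares with lines are the fit with its 95% interval, open and filled circles are the differences among arrays numbered 1 and 2, and red marks an adjusted p under 0.05. Red points are Fzd2, Fzd8, Sfrp1 and Tcf7l2 in the ventral and in the medial against ventral panels, and none in the medial and dorsal panels against the other regions.

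No member passed in the rostral piece (background 0%; 2 of 9 members and 104 of all tested probe sets at an unadjusted p under 0.05 in limma) or in the occipital piece (background 0%; 0 of 9 members and 126 of all). In the rostral piece the lowest unadjusted values belonged to Tcf7l2, with a log2 difference of -1.03, and Fzd8, with 0.53. Rostral Fzd8, at 1568 and 2011, held the highest group mean of the 6. Rostral against occipital also gave no call (background 0%; 1 of 9 members and 62 of all at an unadjusted p under 0.05 in limma). Tcf7l2 was under or near the floor on both rostral arrays (649 and 747) and had 1059 and 2036 on the occipital arrays, a log2 difference of -1.03 in the fit and of -0.61 and -1.45 in the replicates. Sfrp1 turned direction between replicates: rostral minus occipital was -1.64 among the arrays numbered 1 and 1.24 among those numbered 2. Those are the same arrays on which Zic1 changed sides.

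Over the 5 regions together, an F-test of the regional means passed for no member (background 3.26%; 5 of 9 members and 876 of all tested probe sets at an unadjusted p under 0.05 in limma). Tcf7l2 came closest with F = 11.1 and an adjusted p of 0.050, followed by Fzd8 (F = 8.58; adjusted p = 0.0808), Fzd2 (7.49; 0.102), Sfrp1 (5.60; 0.169) and Sfrp2 (3.67; 0.331). With the rostral and occipital arrays left out, an F-test over the remaining 3 regions passed for Tcf7l2, Fzd2 and Sfrp1 (limma, adjusted p = 0.0315, 0.0488 and 0.0124). The remaining members had F of 1.11 or less. Whole hemisphere against the mean of the 5 regions gave no call (background 0%; 1 of 9 members and 277 of all at an unadjusted p under 0.05 in limma). The smallest adjusted p among the members was 0.962. The largest log2 difference there was 0.47 for Tcf7l2, and Fzd8 followed with -0.43.

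Part of the spread between replicates ran with the replicate number, a comparison made after the values were seen. In limma, 17.2% of all tested probe sets differed between the arrays numbered 2 and those numbered 1 within groups. Fzd3 averaged 3468 ± 359 on the arrays numbered 2 and 2326 ± 457 on those numbered 1 (SD, n = 6 each), and was higher on number 2 in 6 of 6 groups (1.51-fold; limma, adjusted p = 0.0155). Fzd2 was also higher on number 2 in 6 of 6 groups (1.33-fold; adjusted p = 0.020). Fzd8 was higher on number 2 in 6 of 6 groups but did not pass (1.20-fold; adjusted p = 0.107). Its ratio was only 1.01 in the occipital and 1.02 in the medial group. Lef1 was 1.59-fold higher on number 2 (5 of 6 groups) and did not pass either (limma, adjusted p = 0.0541). Nor did Tcf7l2 (1.36-fold higher, 6 of 6 groups, adjusted p = 0.0699) or Fzd1 (1.44-fold higher, 5 of 6 groups, adjusted p = 0.0942). In the medial group both Tcf7l2 values were under the floor. Sfrp1 was higher on number 2 in 1 of 6 groups, the rostral one (adjusted p = 0.428). The actin control, whose 5′ to 3′ ratio falls with shortened RNA or cDNA, had ratios of 0.804 to 0.887 on number 2 arrays and 0.604 to 0.831 on number 1 arrays. The same ratio of the Gapdh control overlapped throughout, with 0.979 to 1.14 on number 2 arrays and 0.982 to 1.16 on number 1 arrays. The part of RNA or cDNA length in these differences was not tested.

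**Figure D3:**
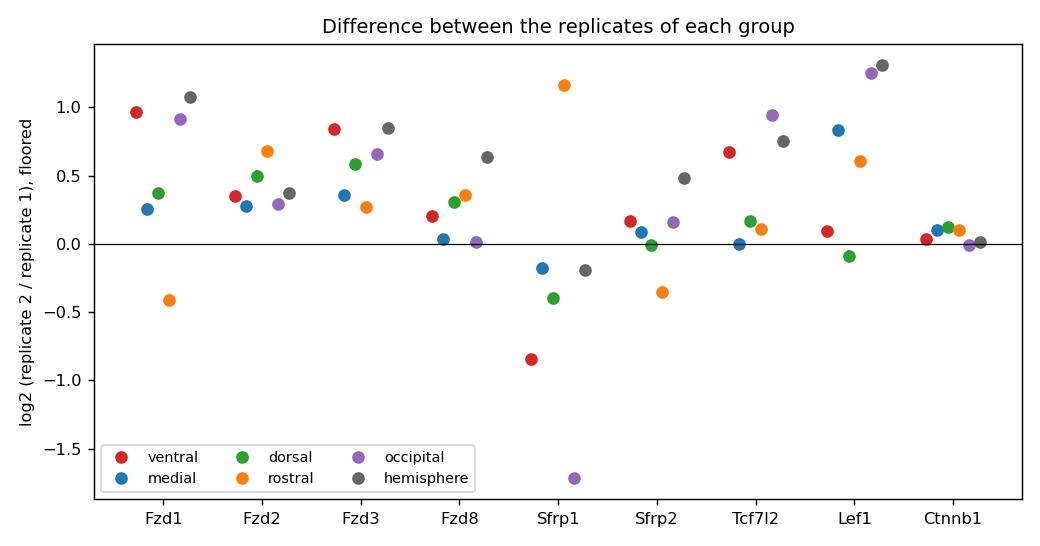
Log2 ratio of replicate 2 over replicate 1 (floored values) for each tested probe set, with a point for each group. Fzd2, Fzd3 and Fzd8 lie above 0 in 6 of 6 groups, whereas Sfrp1 lies below 0 in every group but the rostral one.

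Lists of other pathway genes were drawn from the pathway's roles: 134 genes in 6 lists, of which 90 were on the array and 52 tested. In the ventral piece 6 of the 52 fell and none rose (11.5%). Of all tested probe sets 9.79% passed, 5.54% lower and 4.25% higher. The median log2 difference of the 52 was -0.08, beside -0.02 for all tested probe sets. The share that passed in either direction was thus near the background, while the share that fell was above its 5.54%. In the medial, dorsal, rostral and occipital pieces 0 of 52 passed in limma, with 12, 4, 3 and 1 at an unadjusted p under 0.05. Dorsal against ventral, 4 of the 52 were higher and 0 lower (7.69%, against 5.28% of all tested probe sets in either direction). Medial against ventral, 5 were higher and 1 lower (11.5%, against 11.2% in either direction, 6.05% higher and 5.2% lower). The share in either direction was near the background there.

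The ligands were hardly measured: 2 of 17 on the array were tested, Wnt7b and Wnt10b, and 10 of the 17, among them Wnt3a, Wnt2b and Wnt5a of the medial cortical edge, lay under the floor on all 12 arrays. Wnt7b, a ligand of cortical neurons, had 6251 and 7378 in the dorsal piece, 847 and 1698 in the ventral piece, and 1870.1 to 4258 over the medial, rostral and occipital arrays. Dorsal Wnt7b was higher than ventral by 2.5 on the log2 scale (limma, adjusted p = 0.0462), and its ventral difference from the other regions was -1.52 (adjusted p = 0.0831). In the rostral piece Wnt7b had 4087 and 1870.1, and in the occipital piece 1998 and 4258, which again pairs rostral replicate 1 with occipital replicate 2.

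None of the 3 other receptors and co-receptors tested (Lrp6, Ryk and Fzd4) passed in the ventral piece, and 0 had an unadjusted p under 0.05 in limma. The only gene tested from the list of other secreted antagonists, Dkk3, had 596 and 763 there against 1003 to 2263 in the other regions. Its log2 difference was -1.09 (limma, adjusted p = 0.086). Of the 18 transduction genes tested, among them Gsk3a, Axin1, Apc and Dvl1, 0 passed in the ventral piece and 1 had an unadjusted p under 0.05 in limma. Nlk, a kinase that acts on Tcf and Lef factors, was lower in the medial than in the ventral piece (log2 difference -1.11; adjusted p = 0.0239).

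In the nuclear and junction list 4 of 20 fell in the ventral piece, where 5.54% of all tested probe sets fell: Ctnna1, which encodes alpha-catenin of cell junctions (log2 difference -1.07; limma, adjusted p = 0.0030), the corepressor Ctbp2 (-1.03; 0.0279), and the helicases Ruvbl1 (-0.64; 0.0237) and Ruvbl2 (-0.60; 0.0202). Ctnna1 had 1230.0 and 1200.5 in the ventral piece, against 2048 to 3105 in the other regions. Known target genes fell in 2 of 8 cases, beside the same 5.54%: Mycn (-0.97; adjusted p = 0.00349) and Id2 (-0.83; adjusted p = 0.00703). Mycn, a driver of progenitor growth, had 5548 and 6706 in the ventral piece and 9943 to 13811 in the other regions. Id2, an inhibitor of basic helix-loop-helix factors, had 16513.5 and 17257 in the ventral piece and 24489 to 34183 in the other regions. Axin2, a widely used readout of beta-catenin signalling, stayed under the floor on all 12 arrays and gives no reading.

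**Figure D4:**
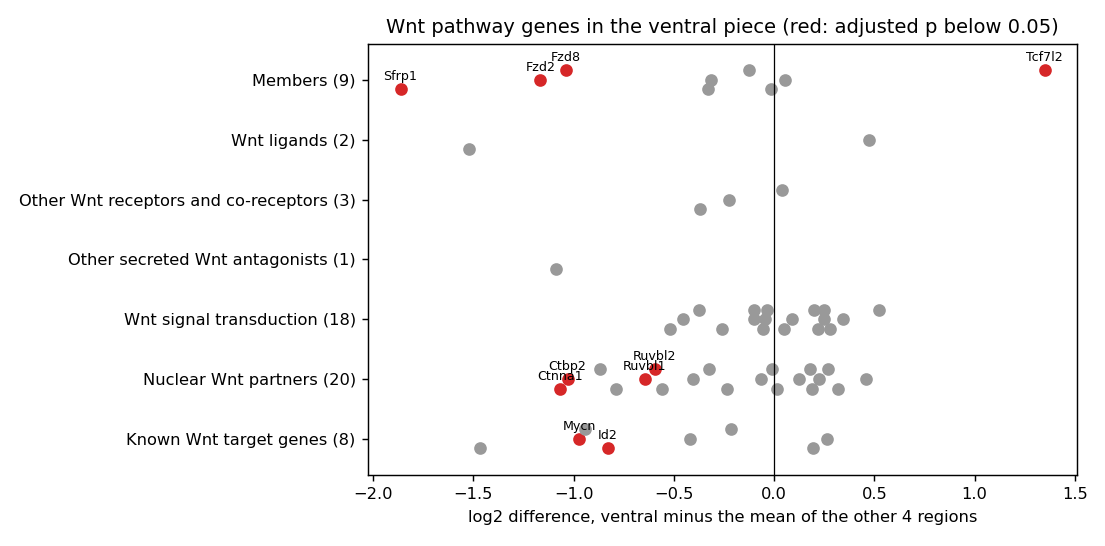
Log2 difference of the ventral piece minus the mean of the other 4 regions for the 9 tested members and 52 other tested pathway genes, by list (the count of genes in brackets). Red points passed, and Tcf7l2 at 1.35 is the only red point right of 0.

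Markers of cell types moved with the ventral difference and stand beside it here. Of the cycling progenitor markers 9 of 12 tested fell in the ventral piece, beside 5.54% of all tested probe sets. The 13 on the array summed to 23150 and 26184 there, against 44742 to 70436 in the other regions. Of the GABAergic and striatal markers 10 of 15 rose, beside 4.25% of all tested probe sets. Their sums were 158932 and 177925 in the ventral piece and 25752 to 102579 in the other regions. Radial glia markers fell in 4 of 10 cases, beside the same 5.54%. Their median log2 difference was -0.60, and 7 of 10 had an unadjusted p under 0.05 in limma (1340 of all tested probe sets). Their sums, 88847 to 90628 in the ventral piece and 88629 to 120092 in the other regions, overlapped. Those sums are mostly Fabp7, which averaged 54119 in the ventral piece and ran the other way (log2 difference 0.13). The part of these cell types in the lower Fzd2, Fzd8 and Sfrp1 and in the higher Tcf7l2 was not tested. In the medial piece the cycling sums were 67414 to 70436, above all other regional arrays (23150 to 56982), and the GABAergic sums 25752 to 30714, below all others (55726 to 177925).

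Thalamus markers are set beside Tcf7l2 here. Of 8 on the array only Zic1 and Calb2 were tested, neither passed in the ventral piece (0 at an unadjusted p under 0.05 in limma), and Rora, Prox1, Gbx2, Lhx9 and Tal2 were under the floor on all 12 arrays. The sums were 12364 and 12466 in the ventral piece, against 1609 to 25707 in the other regions. Those of the other regions were highest on rostral replicate 2 and occipital replicate 1, where Zic1 alone had 22097 and 20733. Tcf7l2 had 747 and 1059 on these arrays. The marker sums were lowest in the dorsal piece, at 1609 and 2049, where Tcf7l2 had 1609.6 and 1806.5. Calb2 passed as lower in the dorsal piece (log2 difference -1.91, limma, adjusted p = 0.0391), where 0.274% of all tested probe sets passed. The part of thalamic tissue in the levels of Tcf7l2 was not tested. Markers of meninges (12 on the array, 5 tested), endothelium (9 and 3), choroid plexus and hem (10 and 3), blood (4 and 2) and microglia (9 and 4) gave 0 passes in the ventral piece in limma, with 1 choroid plexus and hem marker at an unadjusted p under 0.05. Of these, Col3a1, Lum and Foxc1 for meninges, Pecam1 and Tek for endothelium, and Wnt3a, Wnt2b and Wnt5a for the hem were under the floor on all 12 arrays.

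Over the 12 arrays, the genes whose floored log2 levels ran most like the 4 called members were ranked by Pearson's r among 4561 tested genes. These are descriptions over arrays that come in pairs from the same piece. For Fzd2 they were Nxt1, a nuclear export factor (r = 0.957), Ccna2, which encodes cyclin A2 (0.948), and the splicing factor Prpf31 (0.942). For Fzd8 they were the progenitor transcription factor Sox3 (0.937), the replication helicase subunit Mcm3 (0.908) and the phosphatase Cdc25a (0.891). For Sfrp1 they were the chromatin subunit Mta2 (0.948), Nt5dc2 (0.923) and the phosphatase inhibitor Ppp1r14b (0.921). Since the ranking used the same arrays, low ventral levels in these genes follow from it; Ccna2 averaged 6648 in the medial piece and 1738 in the ventral piece. For Tcf7l2 they were Rdh11, a retinol dehydrogenase (0.921, by a probe set with that same suffix), the microtubule end protein Mapre2 (0.888) and Fdps of sterol synthesis (0.887). Mapre2 averaged 4083 in the medial piece and 8057 in the ventral piece.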

How the data were processed

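Per the labels' protocols, poly(A)+ RNA was copied into biotin-labelled cRNA and hybridised to mouse Affymetrix arrays, although the molecule field says total RNA. The deposited intensity per probe set is the average difference, which the authors had scaled per array to a common trimmed mean. The software version and any other step are not given in the sources used here.

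Values below the floor were set to it and log2 was taken. Control probe sets (66 of 12488) were left out. Of the rest, 5832 (46.9%) exceeded 2 times the floor on at least 2 of 12 arrays. In R 4.3.3, limma 3.58.1 fitted 1 mean for each of the 6 groups, with 6 residual and 2.86 prior degrees of freedom, two-sided p-values and Benjamini-Hochberg adjustment within each of 10 comparisons. The other 4 regions entered a comparison with equal weight. Folds come from floored log2 means. With 2 arrays a group, the number of arrays limits precision. The fit was also run on simulated data with 200 changed probe sets, as a check of the code. Those data had independent noise and no shift with the replicate number, so they do not bear on the calls above.

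All member probe sets are described. Pathway genes are named where they passed in a region or the F-test, other pathway genes only as examples chosen after their values were seen, and for each called member the 3 genes most like it are given. The 10 members, the lists and the tests were chosen with earlier results of these data known. Symbols follow the platform annotation, and RefSeq (GRCm38.p6) changed 0 of the members' symbols. Alternatives changed the floor, filter, scale, normalization, variance model, block and arrays.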

Additional observations from a re-analysis of the deposited data

How the results depend on the processing

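Of the values of single members under the alternatives, 1733 kept their direction and side of the threshold, 85 that passed in neither fit changed sign, 31 gained and 35 lost a call, and 0 reversed a called direction. In the ventral piece 4 members passed. With 2 times the floor 1 passed of the 5 then tested: Fzd8 and Tcf7l2 were not among them, and Sfrp1 was at -1.29 (adjusted p = 0.0742). With no filter 1 passed, with the log2 differences as before and p-values adjusted over 12422 probe sets (Fzd2 0.0585, Tcf7l2 0.0846, Sfrp1 0.139). Leaving out 1 array gave 0 to 4, with 0 without ventral replicate 1 and 0 without ventral replicate 2, where the lone ventral array is assumed to vary like the other groups. Sfrp1 was the least stable of the 4: it kept its call in 6 of 12 fits with an array left out, losing it also without either medial or either dorsal array. In medial against ventral 4 passed, with 2 at 2 times the floor, 0 with no filter, and 0 to 4 with an array left out (0 without medial replicate 1, medial replicate 2 or ventral replicate 2, and 1 without ventral replicate 1). In medial against the other regions 0 passed, with 1 at 0.5 times the floor, 1 on the arcsinh scale and 1 without the rostral and occipital arrays, each time Tcf7l2. In dorsal against ventral 0 passed, with 1 after quantile normalization, 1 without the rostral and occipital arrays, and 0 to 1 with an array left out (1 without either occipital array, Sfrp1, or either hemisphere array, Fzd8). The F-test passed 0 members, with 1 at 0.5 times the floor, 1 under the stricter filter, 1 after quantile normalization, 2 with only the arrays compared, 3 without the rostral and occipital arrays, and 0 to 2 with an array left out (1 without either occipital array and 2 without either hemisphere array). Rostral, occipital and hemisphere arrays enter dorsal against ventral only through the estimate of the spread, so leaving them out did not alter those differences. The cause of the changes in calls was not tested.

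Equal replicate numbers share only a number in the labels. With the replicate block the count of members was 2 in medial against the other regions (Fzd2 and Tcf7l2), 3 in dorsal against ventral (Fzd2, adjusted p = 0.00989; Fzd8, 0.0168; Sfrp1, 0.0456) and 3 in the F-test (Fzd2, Fzd8 and Tcf7l2), and the counts in the other comparisons did not change. Over all tested probe sets the block moved the ventral count of calls to 938, against 571 without it. The hemisphere comparison with only the arrays compared is the fit already given, and the rostral and occipital comparisons have no value without their arrays. Signal near the floor limits Fzd1, Fzd7, Fzd8, Tcf7l2 and the second probe sets of Fzd3, Tcf7l2 and Lef1.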
